A study of Arabidopsis thaliana with 5 samples.

Results

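*HYH* (HY5-HOMOLOG, AT3G17609) encodes a basic leucine zipper (bZIP) transcription factor of light signaling. Its RNA was measured by 1 of the 22746 probe sets in the table, and *HYH* is 1 of 13356 genes that a probe set names here. The gene was chosen by the difference in its signal between the genotypes of this series, so its levels and their difference are given as a description without a test. The samples were clusters of unopened floral buds of *Arabidopsis thaliana*, with 3 arrays of the *ask1* mutant (ask1-/-) and 2 of wild-type L*er* (Landsberg *erecta*), on Affymetrix ATH1 arrays. The mutant is in the L*er* background and lacks ASK1, a subunit that joins Cullin and F-box proteins in SCF ubiquitin ligases. Plants of both genotypes grew in soil under long days. Homozygous mutants were recognised by how they looked, and since their petals and anthers develop abnormally the bud clusters differ in their organs as well as in the gene. *ASK1* is not among the named genes here, so the mutation was not checked in these values. The study itself counts *ASK1* among the genes with lower RNA in the mutant.

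HYH is the closest relative of HY5. In seedlings both factors promote development in the light, bind ACGT-containing promoter elements and can form dimers with each other. In the dark, the ubiquitin ligase COP1 marks them for degradation. That ligase acts with CUL4, another cullin than that of the SCF complexes that contain ASK1. Genes for flavonoid synthesis and nitrate reduction are among those that HY5 and HYH are known to activate.

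*HYH* signal was higher in every *ask1* array than in either L*er* array. The log2 signals of *ask1* replicates 1, 2 and 3 were 5.37, 5.95 and 5.77, and those of L*er* replicates 1 and 2 were 4.52 and 3.96. The genotypes did not overlap, and the gap of 0.85 between the lowest *ask1* array and the higher L*er* array was wider than any other gap between neighbours in this order. The other gaps were 0.17 and 0.41 within *ask1* and 0.56 within L*er*. Mean log2 signal was 5.70 ± 0.30 (SD, n = 3) for the mutant and 4.24 ± 0.40 (SD, n = 2) for wild type, so that the log2 ratio was 1.46 (2.75-fold). Averages of the linear signals, 52.5 and 19.2, gave 2.74-fold. Every *ask1* array lay above every L*er* array in 9.04% of the named genes and 10.2% of all genes and unnamed probe sets, and below in 10.7% of either, so the absence of overlap is common with so few arrays.

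**Figure D1:**
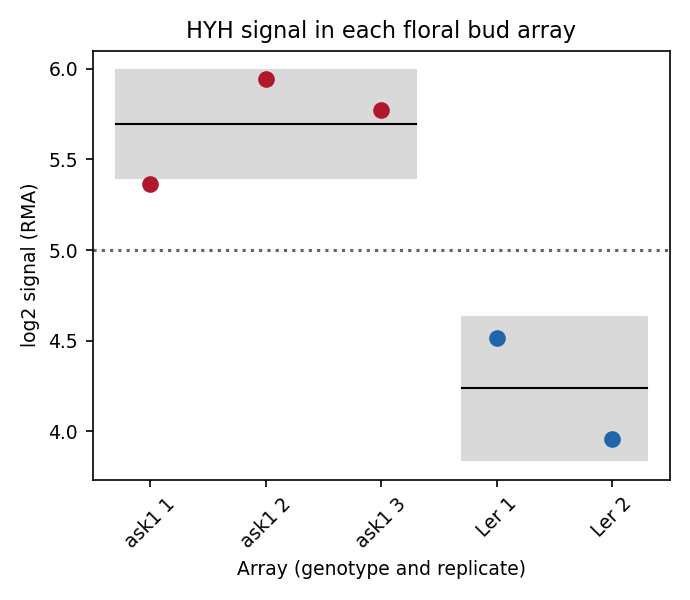
Log2 signal of *HYH* (vertical axis, RMA values) in each of the 3 *ask1* arrays (red) and 2 L*er* arrays (blue). Black lines are group means, grey bands are ± 1 SD and the dotted line marks a log2 signal of 5. The *ask1* arrays lie between 5.37 and 5.95 and the L*er* arrays between 3.96 and 4.52.

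The size of the difference varied with the arrays set against each other. Over the 6 pairs of an *ask1* and a L*er* array it ranged from 1.80-fold (*ask1* replicate 1 over L*er* replicate 1) to 3.97-fold (*ask1* replicate 2 over L*er* replicate 2), and 5 of the 6 pairs differed at least 2-fold. Both L*er* values were under a log2 signal of 5, a range that held 22.8% to 24.4% of the genes and unnamed probe sets in each array and where a ratio can be damped by background. The SD of *HYH* within the genotypes, pooled over both, was 0.33. Among 3368 genes and unnamed probe sets with a mean within 0.5 of that of *HYH*, the median of this SD was 0.14, and 95.7% had a smaller one. *HYH* was therefore among the more variable genes of its signal range between replicates. Its range was 0.58 over the 3 *ask1* arrays and 0.56 over the 2 L*er* arrays. As a description, 13 of the other named genes had a log2 ratio at least as high as *HYH*, and 10 had a gap between the genotypes at least as wide. RefSeq lists 4 transcripts for *HYH*, and which of them the probe set matches was not examined. In whole buds, more cells that express the gene and more RNA per cell cannot be told apart.

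*ask1* replicate 2 was the highest array for *HYH*, which was not its place in most genes with higher signal in *ask1*. Over all genes and unnamed probe sets it correlated at 0.984 with *ask1* replicates 1 and 3, which correlated at 0.996 with each other. With L*er* replicates 1 and 2 it correlated at 0.988 and 0.989. Of 29 named genes other than *HYH* with at least 2-fold higher means in *ask1* and an unadjusted p under 0.05 by limma, *ask1* replicate 2 was the lowest *ask1* array in 21 and the highest in 5. For *HYH* it lay 0.38 above the mean of *ask1* replicates 1 and 3 on the log2 scale. Without it the log2 ratio of *HYH* was 1.33.

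*DFR*, the dihydroflavonol reductase gene of anthocyanin synthesis, a branch of the flavonoid pathway, ordered the *ask1* arrays differently. Replicates 1, 2 and 3 of *ask1* measured 9.88, 6.73 and 10.34 on the log2 scale, and the L*er* arrays 5.83 and 5.99. *ask1* replicate 2, the highest array for *HYH*, was the lowest *ask1* array for *DFR*, with a difference of -3.38 from the mean of the other *ask1* arrays. The log2 ratio of *DFR* was 3.07 (standard error 1.04, adjusted p = 0.621 from limma). It passed the adjusted test without *ask1* replicate 2.

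Of 113 listed genes of light signaling and its outputs, 5 have a named probe set here. Every *ask1* array was above both L*er* arrays for 2 of them (*DFR* and *CSN5B*) and below for 1 (*PORB*). Over all named genes the shares were 9.04% above and 10.7% below, and 5 genes are too few to compare with these. None of the 14 photoreceptor genes and 20 B-box factor genes is named, and *HY5* is not named either. Of the other up-regulated genes that the study lists under light alone, 6 were looked up and none is named. Adjusted p was under 0.05 in limma for 0 of the 5, adjusted over all 22589 genes and unnamed probe sets (0.00443% of them were higher and 0.00885% lower at that threshold). Unadjusted p was under 0.05 for 2 of the 5, against 5.79% of the named genes and 6.95% of all genes and unnamed probe sets. The methods' t-test called 0 of them, adjusted or not, where its unadjusted p was under 0.05 for 5.19% of the named genes and 5.85% of all genes and unnamed probe sets. With at least a 2-fold difference and an unadjusted p under 0.05 by limma, the criteria of the study, 1 was higher (*DFR*) and 1 lower (*PORB*). Among all named genes 0.225% were higher and 0.112% lower by these criteria, and with the unnamed probe sets 0.46% and 0.128%. The choice of test and of arrays ended both calls, *DFR* being kept only without *ask1* replicate 2, and *PORB* only without that array or L*er* replicate 1, when 1 array was left out. Over the 5 genes the median log2 ratio was 0.11, against -0.01 over all named genes.

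Of 22 listed genes of the COP1/SPA and CUL4 ligase and the COP9 signalosome, which act on HYH protein, 2 are named here, and *COP1* is not among them. *CUL4*, the cullin of the COP1 ligase, measured 10.19, 10.09 and 10.26 in *ask1* against 10.43 and 10.23 in L*er* on the log2 scale. *CSN5B*, a catalytic subunit of the COP9 signalosome that removes the NEDD8 tag from cullins, was at a log2 ratio of 0.12 (standard error 0.11). Among the listed light signaling factors *FHL* is named, which helps to bring phytochrome A into the nucleus. Its log2 ratio was 0.11 (standard error 0.13). All 3 differences were within 1.11-fold and none passed the test, although each *ask1* array was above both L*er* arrays for *CSN5B*.

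*PORB*, a light-dependent protochlorophyllide reductase gene of chlorophyll synthesis, was lower in every *ask1* array. The log2 signals of *ask1* replicates 1, 2 and 3 were 10.16, 10.96 and 9.90, and those of L*er* 11.16 and 11.64. Its log2 ratio was -1.06 (standard error 0.33, adjusted p = 0.564 from limma). *ask1* replicate 2 came nearest to L*er*, and without it the ratio was -1.37 and passed the adjusted test.

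Names in the RefSeq gene table pointed to 8 light-related genes, chosen after the values were seen and counting *FHL* again. Adjusted p was under 0.05 in limma for 0 of the 8 and unadjusted p for 2, *LHCB4.2* and *AFR*. With the methods' t-test these counts were 0 and 1. The shares with an unadjusted p under 0.05 over all named genes were 5.79% and 5.19%. *AFR* encodes an F-box protein of phytochrome A signaling. It measured 7.01, 7.21 and 7.14 in replicates 1, 2 and 3 of *ask1* against 6.71 and 6.70 in L*er*, with the arrays in the same order as for *HYH*. The difference was smaller than that of *HYH*, at 0.42 on the log2 scale (standard error 0.10, adjusted p = 0.446 from limma). *LHCB4.2* encodes a form of the CP29 antenna protein of photosystem II and measured 10.07, 11.19 and 10.30 against 9.86 and 9.52. Here too *ask1* replicate 2 was highest. For *LHCB4.2* the ratio on the log2 scale was 0.83 (standard error 0.33, adjusted p = 0.707 from limma) and 0.50 without that array. The other CP29 genes, *LHCB4.1* and *LHCB4.3*, had log2 ratios of -0.03 and -0.05. The other genes found by name were *SHB1* at 0.01, *AT1G72390* (PHL, a regulator of flowering time that acts with phytochrome B) at -0.05 and *AT5G47390* (a MYB factor of hypocotyl elongation) at -0.08. *AT1G72390* has more than 1 probe set, and their mean gave a log2 ratio of -0.18.

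**Figure D2:**
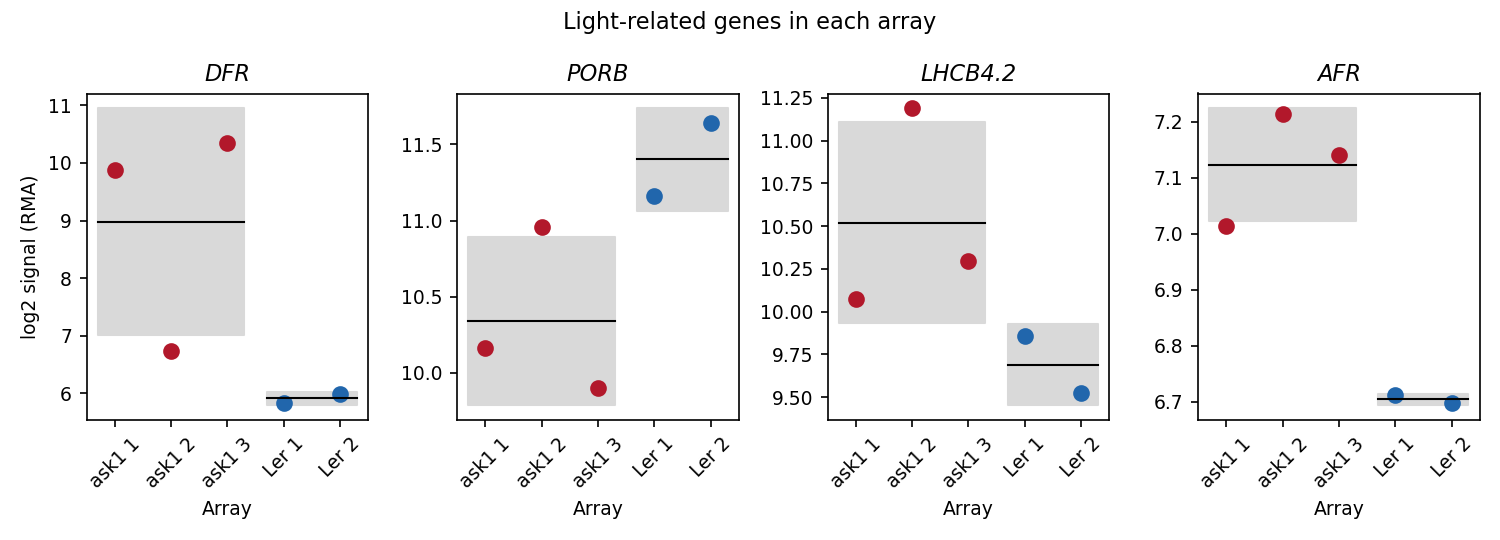
Log2 signal (vertical axes, RMA values, a separate scale in each panel) of *DFR*, *PORB*, *LHCB4.2* and *AFR* in the *ask1* (red) and L*er* (blue) arrays. Lines are group means and grey bands ± 1 SD. *ask1* replicate 2 is the lowest *ask1* array for *DFR* at 6.73 and the highest for the other three.

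Other named bZIP genes had smaller differences than *HYH*, which is no result about them, since *HYH* was chosen by its difference. The names of 22 further genes place them in the bZIP family, a set chosen after the values were seen, and their log2 ratios ranged from -0.43 to 0.81 with a median of 0.03. In limma, adjusted p was under 0.05 for 0 of the 22, 0 met the criteria of the study, and unadjusted p was under 0.05 for 2. With the methods' t-test 0 passed after adjustment and 1 before. These counts are near the shares over all named genes, 5.79% by limma and 5.19% by the methods' t-test. The highest ratio was that of *bZIP58*, which measured 5.64, 6.57 and 5.86 in replicates 1, 2 and 3 of *ask1* against 5.38 and 5.06 in L*er*. As for *HYH*, all *ask1* arrays were above L*er* and *ask1* replicate 2 was highest, and without that array the ratio was 0.53. *BZIP28*, a membrane-bound factor of the endoplasmic reticulum stress response, was at 0.24 on the log2 scale (standard error 0.09, adjusted p = 0.691 from limma). The ratios of *BZIP17* and *BZIP60*, which act in the same response, were 0.14 and 0.04. The lowest was *BZIP53*, a factor of seed maturation and of the response to low energy, at -0.43, with 9.11, 9.83 and 9.13 in *ask1* and 9.85 and 9.72 in L*er*. *FD*, the partner of the flowering signal FT, was at 0.15, and its L*er* arrays at 6.05 and 6.55 enclosed all *ask1* values.

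**Figure D3:**
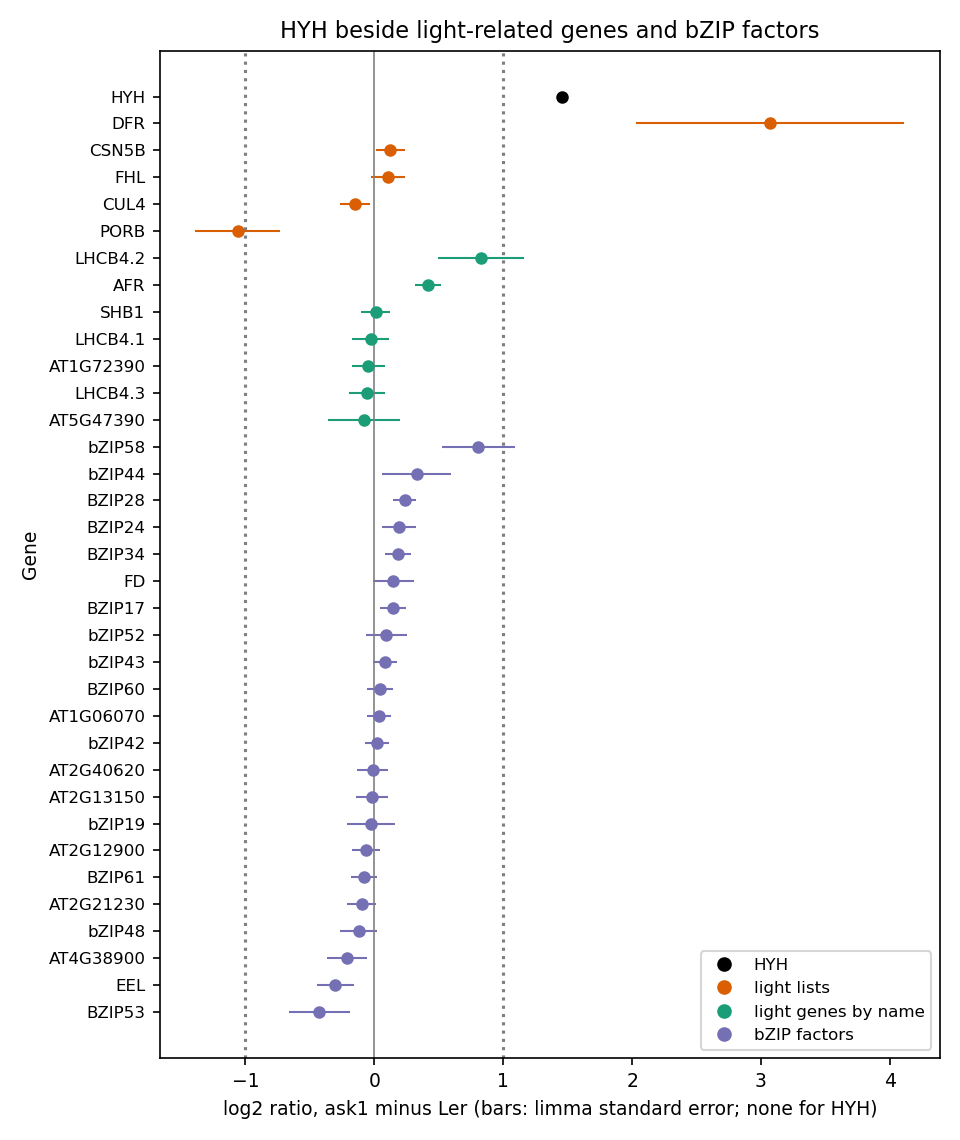
Log2 ratio of *ask1* over L*er* (horizontal axis) for *HYH* (black), the listed light genes (orange), light-related genes found by name (green) and other bZIP genes (purple). Bars are limma standard errors (none is drawn for *HYH*) and dotted lines mark 2-fold. *HYH*, chosen by its difference, is at 1.46, and the highest of the other bZIP genes shown is *bZIP58* at 0.81.

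Genes with the pattern most like that of *HYH* were found by the distance between log2 signals over the 5 arrays, each gene centred on its own mean. The nearest was *AT4G03156* at a distance of 0.48, followed by *AT2G40460* (0.49), *AT5G62130* (0.51), *AT3G17130* (0.59), *AT3G49160* (0.59), *AT5G55620* (0.66), *AT1G42705* (0.67) and *AT4G24700* (0.68), where the median over the named genes was 1.74. Their log2 ratios lay between 0.89 and 1.62 and their Pearson correlations with *HYH* between 0.92 and 0.99 over 5 arrays. *AT4G03156* measured 5.10, 5.58 and 5.55 in replicates 1, 2 and 3 of *ask1* against 3.76 and 3.82 in L*er*, a profile as dim as that of *HYH*. *AT1G42705* is listed as a pseudogene and its probe set is of a kind that can match several similar sequences. As for *HYH*, *ask1* replicate 2 was the highest array in 2 of the 8, *AT4G03156* and *AT5G62130*. All the points share the same 5 arrays, and the choice by likeness fixes the direction of these genes. The set depended on single arrays: without *ask1* replicate 2 only 1 of the 8 stayed among the nearest 8, without L*er* replicate 2 only 3 did, and 4 did when either *ask1* replicate 3 or L*er* replicate 1 was left out.

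**Figure D4:**
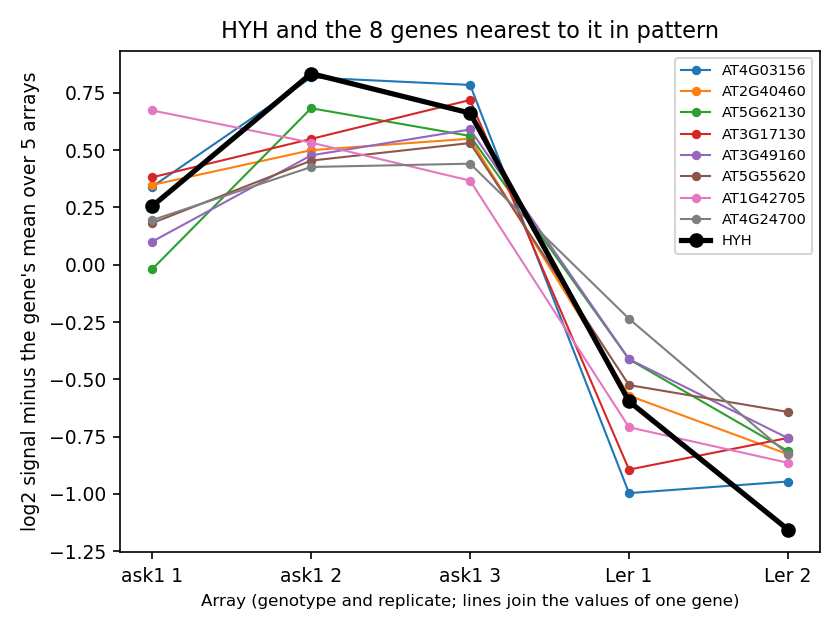
Log2 signal minus the mean of each gene over the 5 arrays (vertical axis) for *HYH* (thick black line) and the 8 named genes nearest to it. Lines join the values of one gene and imply no order of the replicates. All 9 genes are higher in the *ask1* arrays, and *HYH* has the lowest point, in L*er* replicate 2.

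The measured genes nearest to *HYH* on chromosome 3 did not show its difference. Of these, *IAA31*, *AT3G17520* and *AT3G17620* were under a log2 signal of 5 in every array, where a difference can be damped. Between *AT3G17520* and *HYH* lie 10 other genes. *IAA31*, an auxin response repressor gene that directly precedes *HYH* among the annotated genes, measured 4.35, 4.13 and 4.19 in *ask1* against 4.02 and 4.19 in L*er*. *BSH*, a gene for a subunit of chromatin remodeling complexes that lies before it, had a log2 ratio of -0.25. On the other side, *CHX19*, a cation/H+ exchanger gene, was at 0.13. Over the 3 nearest measured genes on each side the log2 ratios ranged from -0.25 to 0.18, and in each the arrays of the genotypes overlapped. Overlap is usual, as every *ask1* array was above L*er* in only 9.04% of all named genes and below in 10.7%.

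Few markers of the tissues in the buds are named here. None passed the adjusted test, but neither did any of the 13356 named genes with all arrays. Of 10 floral organ identity genes *UFO* is named here, with log2 signals of 5.99 to 6.29 in *ask1* and 6.23 and 6.26 in L*er*. Of 12 genes of green leaf tissue the 2 that are named, *RCA* and *PRK*, had summed linear signals of 6672 to 9567 in *ask1* and 6586 to 7992 in L*er*, highest in *ask1* replicate 2 and lowest in L*er* replicate 2. *RCA*, the brighter gene, had these extremes, as did *HYH*, but *PRK* was lowest in *ask1* replicate 1, at 10.77 on the log2 scale, and had a log2 ratio of -0.03. Of 12 anther genes 4 are named (*SPL*, *EMS1*, *AMS* and *AT5G07230*, also called A9), with summed signals of 1263 to 1872 in *ask1* and 1500 and 4293 in L*er*. L*er* replicate 1 held the high value, through *AT5G07230* at 11.46 against 8.31 in L*er* replicate 2. *AMS* was dim, at 5.96 in L*er* replicate 1 and under 5 in the other arrays. All 4 anther genes had negative log2 ratios, from -0.89 to -0.26. Without L*er* replicate 1 those of *AMS* and *AT5G07230* were 0.03 and 0.69. Only *EMS1* was below L*er* in every *ask1* array, as were 10.7% of all named genes. The part of these tissues in the *HYH* difference was not tested.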

How the data were processed

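The deposited values are log2 signals that the authors made from Affymetrix ATH1 scans with RMA, which corrects the background, normalizes arrays by quantiles and summarises each probe set. The version was not given in the sources used here. The study describes 4 L*er* arrays, and the deposited values used here hold 2, both of which were used. Of 22746 probe sets, the platform's annotation pairs 13513 with 1 gene, 503 with several and 8730 with none. The brightest single-gene probe set stood for a gene (13356 genes), and the dimmer single-gene probe sets of the same gene were left out. Probe sets with several genes or none stayed as unnamed rows (22589 rows in all).

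Differences between *ask1* and L*er* were tested by limma 3.58.1 (R 4.3.3, functions lmFit and eBayes) with 2-sided p-values, adjusted after Benjamini and Hochberg over all rows, at a threshold of 0.05. The script was tested on simulated data. The criteria of the study, at least 2-fold and p under 0.05, here used p from limma. *HYH* and the gene lists were chosen with earlier results of these data known. Nothing says that replicate numbers mark shared batches. The labels call the replicates biological. The number of arrays limits the precision. Locus tags and names came from RefSeq (TAIR10.1). RefSeq coordinates served only to find the neighbours of *HYH*, and sequences were not used here. Named genes were *HYH*, in each list those past a threshold, at least 1.5-fold apart or among the 3 highest or lowest, the 8 genes nearest to *HYH* in pattern, and the 3 nearest measured genes on either side. Results were recomputed with array weights, limma-trend, the methods' t-test, centring, repeated quantile normalization, a filter on dim rows, the mean of probe sets, linear averages, medians, a replicate block, the omission of each array and, added after the data were seen, *ask1* replicates 1 and 3 as 1 sample.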

Additional observations from a re-analysis of the deposited data

How the results depend on the processing

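The log2 ratio of *HYH*, 1.46, stayed at least 2-fold in all 14 alternatives. It ranged from 1.18 (without L*er* replicate 2) to 1.74 (L*er* replicate 1 left out) when 1 array was omitted. Otherwise it lay between 1.42 (replicate block) and 1.54 (difference of medians). The alternatives are not all independent. The filter on dim rows and the mean of probe sets could not change the ratio. The replicate block gave the same value as leaving out *ask1* replicate 3. The numbers of named genes that met the criteria of the study, 30 higher and 15 lower, depended more on the processing. They were 13 and 5 with the methods' t-test and 54 and 47 with array weights, 40 were lower with the replicate block, and 17 were higher with *ask1* replicates 1 and 3 averaged. Leaving out 1 array gave 16 to 55 higher and 12 to 90 lower: 54 and 90 without *ask1* replicate 2, 16 higher without *ask1* replicate 3, 55 and 26 without the first L*er* replicate, and 84 lower without the second. The adjusted test called 171 named genes without *ask1* replicate 2 and 0 with all arrays. The replicate numbers are not known to pair the arrays, and the deviations of same-numbered arrays correlated at -0.26 and -0.01. In the light lists the count of 1 higher gene, *DFR*, was 0 with the t-test and with *ask1* replicates 1 and 3 averaged, and 0 to 1 when 1 array was left out. The count of 1 lower gene, *PORB*, was 0 with the t-test, the replicate block and that average, and 0 to 1 when 1 array was left out. Without a L*er* array the remaining one is assumed to vary like the *ask1* arrays. The 8 genes nearest to *HYH* shared 5 with the 8 highest by Pearson correlation. The L*er* signals of *HYH* are dim, and whether background damped its ratio was not tested.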

Other observations

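Probe sets without a gene name lay closer to *HYH* in pattern than any named gene. The nearest over all rows was 252429_at, at a distance of 0.36, which measured 8.04, 8.60 and 8.02 in replicates 1, 2 and 3 of *ask1* against 7.02 and 6.61 in L*er*. The next was 253039_at, at 0.41, with 9.40, 9.59 and 9.64 in *ask1* and 8.60 and 8.10 in L*er*. Both were brighter than *HYH* in every array. They kept the genotypes apart, and in 252429_at *ask1* replicate 2 was again the highest. The choice by likeness to *HYH* fixes their direction and favours its order of arrays, so this is no result about them. In all, 18 unnamed probe sets were nearer to *HYH* than the last of the 8 named genes. Ranked by Pearson correlation over the 5 arrays, 36 of the 624 other named genes with a range of at least 1 on the log2 scale reached 0.9. *AT5G15950*, chosen after its values were seen, was among the 8 highest of these, at 10.28, 10.53 and 10.47 in *ask1* and 8.75 and 7.95 in L*er*. Its arrays had the same order as those of *HYH*, a likeness that the ranking selects for.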
